A study of Mus musculus with 3 samples.

Results

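The 10 genes described here carry peptides to the cell surface on major histocompatibility complex (MHC) class I molecules or belong to the immunoproteasome. They are the class I heavy chains H2-K1, H2-D1 and H2-T23, the light chain B2m, the peptide transporter genes Tap1 and Tap2, the transactivator Nlrc5 and the immunoproteasome subunits Psmb8, Psmb9 and Psmb10. They were taken by name from the 30406 genes that the gene lists of all 3 libraries hold. The 10 were chosen with earlier results of these data known. All 10 were found in every library under 1 Ensembl ID each. Nuclei came from whole mouse corneas at 7 weeks of age, per the labels, and each of the 3 libraries pooled 5 mice. The wild-type library (WT) came from untreated animals. The knockout library (KO) came from untreated Aire knockout mice, and the saline library (KO_PBS) from Aire knockout mice given PBS for 14 days. Both knockout libraries therefore share the genotype, which in these mice goes with autoimmune dry eye. The sources used here do not name a strain, and the series text gives another age and treatment day than the labels do.

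Nearly every nucleated cell can show class I molecules. The proteasome cuts proteins into peptides, Tap1 and Tap2 pump them into the endoplasmic reticulum, and there they are loaded onto a heavy chain paired with B2m for display to CD8 T cells. Interferon gamma is the classical inducer of the pathway: it acts in part through Irf1, raises Nlrc5, and lets Psmb8, Psmb9 and Psmb10 take the places of the constitutive catalytic subunits Psmb5, Psmb6 and Psmb7. In the resting cornea class I display is known to be low, which is part of what is called its immune privilege.

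Most of the genes lie in the MHC on chromosome 17 (mm10, gene models of GENCODE M21). H2-K1 (ENSMUSG00000061232) lies at chr17:33996017-34000347 on the minus strand, H2-D1 (ENSMUSG00000073411) at chr17:35262730-35267499 on the plus strand and H2-T23 (ENSMUSG00000067212) at chr17:36029773-36032855 on the minus strand. Psmb9 (ENSMUSG00000096727, chr17:34181987-34187764, minus), Tap1 (ENSMUSG00000037321, chr17:34187553-34197225, plus), Psmb8 (ENSMUSG00000024338, chr17:34197721-34201454, plus) and Tap2 (ENSMUSG00000024339, chr17:34203527-34216321, plus) follow each other in 1 cluster. B2m (ENSMUSG00000060802) lies outside the MHC at chr2:122147686-122153083 on the plus strand. Nlrc5 (ENSMUSG00000074151) at chr8:94434356-94527272 on the plus strand and Psmb10 (ENSMUSG00000031897) at chr8:105935735-105938444 on the minus strand lie outside it too. All are protein-coding.

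Class I promoters are known for a shared layout: an X box and a Y box that RFX, CREB and NF-Y proteins bind and on which Nlrc5 assembles, with a kappa B and an interferon-response element further upstream in heavy-chain genes. RefSeq promoters (GRCm38.p6, the mm10 build) were matched for 8 of the 10 genes, and no entry was matched for Tap2 and Nlrc5. The 250 bases before the start were searched on both strands for TGACG (the core of the X2 site), ATTGG (the CCAAT sequence read on the other strand, the core of the Y box), GGGGATTCC (a kappa B sequence), and GAANNGAAA and GAAANNGAA (interferon-response sequences, which can overlap). The promoters of H2-K1 and B2m are shown because both chains of the class I molecule can be compared in them. Capitals mark the matches, and positions count back from the RefSeq start. That start can lie inside the GENCODE gene models: all 250 bases fall in annotated exons, of the gene itself or another, for H2-D1, Tap1, Psmb8 and Psmb9, and 154 do for H2-T23.
H2-K1 (chr17:34000348-34000467, minus strand, bases -120 to -1): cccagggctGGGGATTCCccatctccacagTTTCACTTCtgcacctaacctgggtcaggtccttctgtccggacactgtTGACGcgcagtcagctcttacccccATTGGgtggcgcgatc
B2m (chr2:122147537-122147685, plus strand, bases -150 to -2): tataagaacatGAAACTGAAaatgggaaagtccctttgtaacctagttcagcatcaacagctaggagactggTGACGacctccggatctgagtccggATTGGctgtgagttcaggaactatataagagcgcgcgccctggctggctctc

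TGACG was followed by ATTGG exactly 25 bases on, from first base to first base, in H2-K1, H2-D1 and B2m. The stretches are set under each other to show that the spacing is kept while the bases between differ.
H2-K1 (chr17:34000359-34000388, minus strand): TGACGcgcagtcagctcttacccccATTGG
H2-D1 (chr17:35262993-35263022, plus strand): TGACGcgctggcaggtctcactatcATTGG
B2m (chr2:122147609-122147638, plus strand): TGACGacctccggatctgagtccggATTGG
This spacing, chosen after it was seen in these genes, was found in 25 of 27025 promoters of the same length (0.0925%). The heavy chains H2-K1 and H2-D1 also share a kappa B sequence 21 bases before an interferon-response sequence, while B2m holds an interferon-response sequence and no GGGGATTCC in its 250 bases.
H2-K1 (chr17:34000429-34000458, minus strand): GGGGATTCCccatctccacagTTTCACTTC
H2-D1 (chr17:35262923-35262952, plus strand): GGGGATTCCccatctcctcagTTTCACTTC
The RefSeq starts of Tap1 and Psmb9 lie 226 bases apart on opposite strands, so their windows overlap. They share 1 TGACG, shown here on the plus strand, and 1 ATTGG, and each is counted for both genes.
Tap1 and Psmb9 (chr17:34187460-34187484, plus strand): cagagacaggTGACGacagagggtc
Of the 8 promoters, 5 held TGACG (17.9% of all promoters), 6 ATTGG (34.5%), 2 GAANNGAAA (6.34%), 2 GAAANNGAA (7.16%) and 2 GGGGATTCC (0.218%). Psmb8 and Psmb10 held none of the letters searched. These matches describe the sequence and do not show binding.

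Some of these genes share reads or transcripts with others, which bears on how firmly a value belongs to 1 gene. The 50-base words in the last 500 bases of the annotated coding transcripts were looked up in other genes. Of them 9.60% for H2-K1, 8.92% for H2-D1 and 38.1% for H2-T23 also occur in another gene. A read that lies in such a word cannot be given to 1 gene by its sequence. For H2-T23 the gene sharing most was Rab33b (17.3%), not another heavy chain. For Tap1 the share was 2.75%, and for B2m, Tap2, Nlrc5, Psmb8, Psmb9 and Psmb10 it was 0. Exons of Tap1 and Psmb9 overlap by 212 bases on opposite strands. Tap2, Psmb8 and Nlrc5 overlap exons of the non-coding genes Gm20496, Gm15821 or 9330175E14Rik on the opposite strand. Whether the counting used strand is not stated in the sources used here. Against 247, 23840 and 8281 UMIs of Nlrc5, its antisense neighbour 9330175E14Rik had 28 (WT), 1384 (KO) and 695 (KO_PBS). Gm20496 and Gm15821 had at most 182 UMIs in a library, against at least 6273 for Tap2 and 61911 for Psmb8.

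The files hold counts of unique molecular identifiers (UMIs) for 96587 (WT), 107031 (KO) and 114357 (KO_PBS) barcodes. In the same order they hold 256852883, 352627863 and 178988562 UMIs, a median of 2261, 2980 and 1432 per barcode. The gene list of KO_PBS has 31053 entries and those of WT and KO 32285, so KO_PBS was counted against another list. Between 2.62% and 3.16% of the barcodes of a library also occur in another. The RNA of Aire was near 0 in all 3 libraries, at 15 (WT), 27 (KO) and 68 (KO_PBS) UMIs. It did not check the labels, so every direction below holds for the libraries as they are labelled. Markers of differentiated corneal epithelium summed to 39369 CPM (UMIs scaled to the same total in each library) in the WT library, to 26103 in KO and to 19012 in KO_PBS, so corneal RNA was present in each. KO_PBS stood apart through other tissues of the eye: its lens markers summed to 6216 CPM against 434 in WT and 167 in KO, and its photoreceptor markers to 1923 against 157 and 65.1. No marker of these lists was at 0 in any library. The Y-linked gene Ddx3y had 54 (WT), 74 (KO) and 1061 (KO_PBS) UMIs, so KO_PBS stood apart in it too, and its part in the results was not tested. No difference could be checked against replicates, as each group is 1 library. The 95% intervals given are exact Poisson intervals and cover counting error only.

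All 10 genes were higher in the knockout library than in wild type. The sum of the 10 was 1227 CPM in WT and 6475 CPM in KO. Nlrc5, the transactivator of class I genes, had the largest ratio of the 10 at 70.3-fold, followed by the light chain B2m at 15.0-fold, the heavy chain H2-K1 at 9.34-fold and the transporter gene Tap1 at 7.11-fold. The other six ranged from 3.00-fold for H2-T23 to 4.28-fold for Tap2. A gene was counted as higher or lower when both libraries together held at least 50 UMIs, the CPM differed at least 2-fold and the intervals lay apart. The rule weighs size and tests nothing; it is called the rule of size here. By it 20.6% of the 20252 genes compared were higher in KO and 8.63% were lower. The median log2 ratio of the 10 genes was 2.03, from 1.58 to 6.14, against 0.24 for all genes compared. With every ratio centred on that median gene, all 10 remained counted as higher, as 14.8% of all genes were. The sums are over all barcodes of a library, so more cells with a gene and more RNA of it per cell cannot be told apart.

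**Figure D1:**
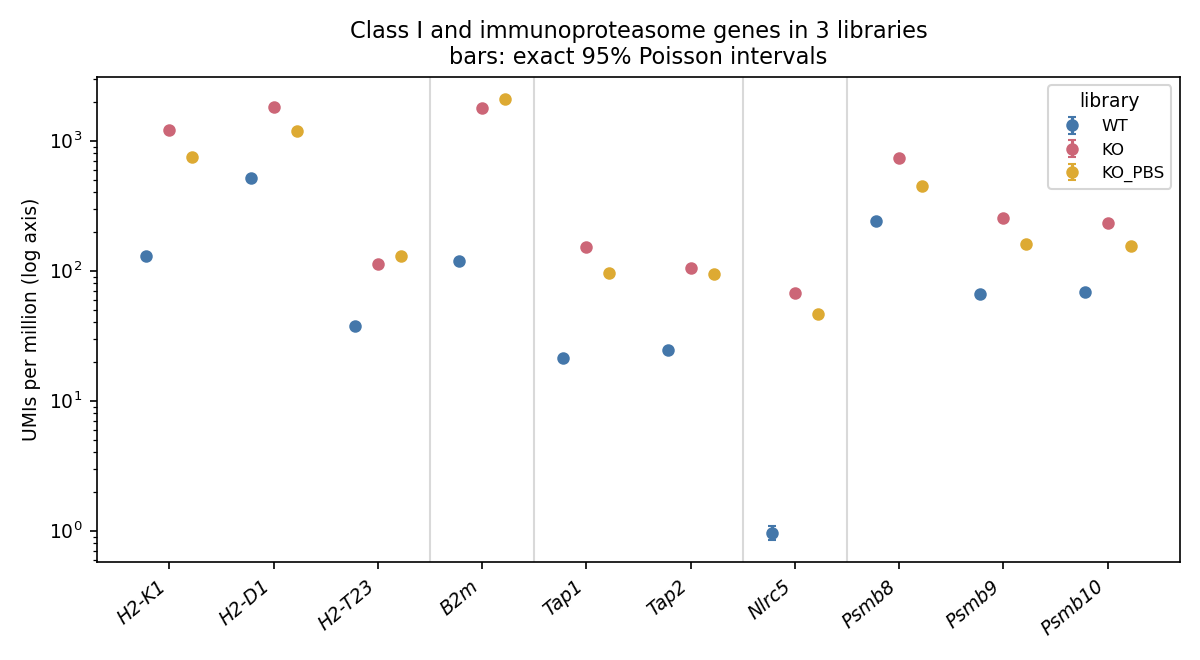
Level of each of the 10 genes in CPM (log axis) in the WT, KO and KO_PBS libraries, with exact 95% Poisson intervals that are mostly smaller than the points. Every gene is lowest in WT. KO lies above KO_PBS for all but H2-T23 and B2m.

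The heavy chains differed among themselves. H2-K1, a classical heavy chain that presents peptides to CD8 T cells, was at 129.7 CPM in WT (128 to 131), 1210.4 in KO (1207 to 1214) and 754.5 in KO_PBS (750.5 to 759). H2-D1, the other classical heavy chain in these lists, was at 518 CPM in WT (515 to 521), 1828 in KO (1824 to 1833) and 1190.1 in KO_PBS (1185 to 1195). Its 3.53-fold ratio of KO to WT was smaller than that of H2-K1, and the UMI ratio of H2-K1 to H2-D1 went from 0.250 in WT (0.247 to 0.253) to 0.662 in KO (0.660 to 0.665) and 0.634 in KO_PBS (0.630 to 0.638). H2-T23 encodes Qa-1, a non-classical heavy chain read by the natural killer receptor of Klrd1 and Klrc1, and was at 37.8 CPM in WT (37.0 to 38.5), 113 in KO (112 to 114) and 129 in KO_PBS (127 to 130.3). WT was the lowest library for each heavy chain and no intervals overlapped. The order of KO and KO_PBS was not shared: H2-K1 and H2-D1 were highest in KO, and H2-T23 in KO_PBS.

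B2m, the light chain that every class I molecule needs, was at 118 CPM in WT (117 to 119.5), 1777 in KO (1772 to 1781) and 2090 in KO_PBS (2083 to 2097). Its part of the UMIs of the 10 genes was 9.63% (WT), 27.4% (KO) and 40.5% (KO_PBS). The UMI ratio of B2m to H2-K1 and H2-D1 together was 0.182 in WT (0.180 to 0.185), 0.585 in KO (0.583 to 0.587) and 1.07 in KO_PBS (1.07 to 1.08). B2m per heavy-chain UMI was thus 3.20 times as high in KO as in WT, and 1.84 times as high in KO_PBS as in KO.

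Tap1 and Tap2 form 1 transporter as a pair, yet their RNA ratio moved. Tap1 was at 21.2 CPM in WT (20.7 to 21.8), 151 in KO (149.6 to 152) and 95.9 in KO_PBS (94.5 to 97.3). Tap2 was at 24.5 CPM in WT (23.9 to 25.1), 105 in KO (104 to 106) and 94.0 in KO_PBS (92.6 to 95.4). Tap1 UMIs per Tap2 UMI went from 0.866 in WT (0.835 to 0.899) to 1.44 in KO (1.42 to 1.46) and 1.02 in KO_PBS (0.998 to 1.04).

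Nlrc5 was the gene nearest to the floor in wild type. It had 247 UMIs in WT, 0.965 CPM (0.849 to 1.09), against 67.9 CPM in KO (67.0 to 68.7) and 46.6 in KO_PBS (45.6 to 47.6). Its 95% interval for the ratio of KO to WT was 62.0 to 80.0, and that of KO_PBS to WT 42.5 to 55.0.

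The 3 immunoproteasome subunits had similar ratios of KO to WT. Psmb8, the immune counterpart of Psmb5, was at 242 CPM in WT (240.0 to 244), 732 in KO (729 to 735) and 449 in KO_PBS (446 to 452). Psmb9, which replaces Psmb6, was at 66.0 CPM in WT (65.0 to 67.0), 256 in KO (255 to 258) and 160.1 in KO_PBS (158 to 162). Psmb10, which replaces Psmb7, was at 68.7 CPM in WT (67.7 to 69.7), 235 in KO (233 to 236) and 154 in KO_PBS (153 to 156). All 3 had the order WT, KO_PBS, KO, with intervals apart, and their ratios of KO to WT ran from 3.03-fold to 3.89-fold.

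The constitutive subunits they replace were not higher in KO. Psmb5 was at 301 CPM in WT, 224 in KO and 161 in KO_PBS, Psmb6 at 332.5, 321 and 213, and Psmb7 at 133, 104 and 120.1, so none was counted as higher or lower in KO. The UMI ratio of Psmb8 to Psmb5 was 0.803 in WT (0.795 to 0.812), 3.26 in KO (3.24 to 3.29) and 2.79 in KO_PBS (2.75 to 2.83). Psmb9 per Psmb6 was 0.198 in WT, 0.798 in KO and 0.750 in KO_PBS, and Psmb10 per Psmb7 0.517, 2.26 and 1.29. Each immune subunit gained on its partner by a similar factor in KO over WT, which was 4.06 for Psmb8, 4.02 for Psmb9 and 4.37 for Psmb10. Between KO and KO_PBS the factors were 0.854, 0.941 and 0.570. These ratios do not depend on the library total, and only their change between libraries is read. The value of Psmb5 is uncertain, because 54.5% of its 50-base words near the transcript end also occur in Gm3375.

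**Figure D2:**
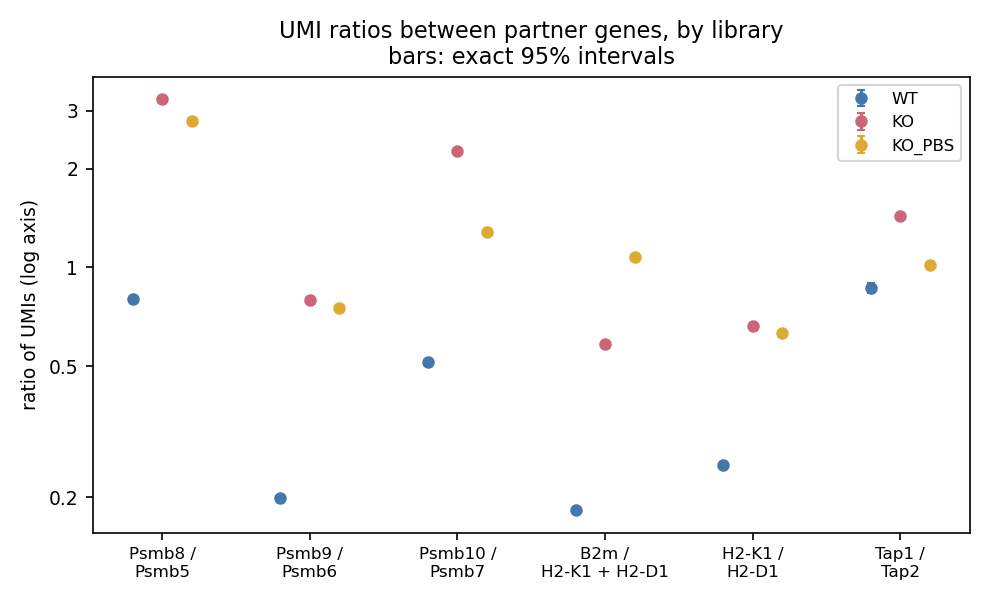
Ratio of UMIs between partner genes (log axis) in the WT, KO and KO_PBS libraries, with exact 95% intervals. The 3 pairs of immune and constitutive subunits are higher in KO than in WT by 4.02-fold to 4.37-fold, while B2m over H2-K1 and H2-D1 is highest in KO_PBS.

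In the saline library the 10 genes lay near the untreated knockout level, with none 2-fold away. In KO_PBS against KO, 8 of the 10 ratios were below 1, from 0.613 for Psmb8 to 0.896 for Tap2. B2m at 1.18 and H2-T23 at 1.14 were above 1, and both turned below 1 (log2 -0.40 and -0.45) when centred on the median gene. By the rule of size 0 of the 10 were higher and 0 lower, while 39.9% of the 22416 genes compared were higher and 4.7% lower. The median log2 ratio of the 10 was -0.61 against 0.63 for all genes. Centred on the median gene, 7 of the 10 were counted as lower (H2-K1, H2-D1, Tap1, Nlrc5, Psmb8, Psmb9 and Psmb10), as were 12.9% of all genes. The call for this comparison therefore depends on the scale. Markers of lens (7 of 7), photoreceptors (8 of 8) and melanocytes (7 of 7), all higher in KO_PBS than KO, move with it, as do markers of retinal pigment epithelium (7 of 7), skeletal muscle (8 of 8), corneal endothelium (6 of 7), vessels (8 of 10) and mural cells (5 of 7), also higher. Counted as lower by the rule of size, as none of the 10 was, were markers of keratocytes (5 of 8), plasma cells (5 of 7) and basal epithelium (4 of 8, summed CPM 4069 in KO and 1846 in KO_PBS). These lists move with the result, as does the gene list of that library, and their part in the result was not tested. This comparison and the one with WT share the KO library.

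Against wild type, KO_PBS held 9 of the 10 genes higher by the rule of size, and Psmb8 at 1.86-fold was under 2-fold. The background was high: 57% of the 22138 genes compared were counted as higher in KO_PBS, and 4.06% as lower. B2m had a ratio of 17.7 and Nlrc5 one of 48.3, and H2-K1 followed at 5.82. The median log2 ratio of the 10 was 1.85 against 1.27 for all genes. Centred on the median gene, B2m, Nlrc5 and H2-K1 were still counted as higher, as 29.6% of all genes were. On that scale H2-D1 (-0.069), Psmb8 (-0.38) and Psmb10 (-0.10) lay slightly below 0 on the log2 scale.

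Genes that work beside the 10 were read from lists of pathway genes, against the background of 20.6% of all genes higher in KO than in WT, or 14.8% when centred on the median gene. Of 11 other class I heavy chains all 11 were higher in KO. Their median log2 ratio to WT was 2.82. H2-Q7 had 6.34, H2-M2 5.40, H2-Q6 4.76 and H2-T3 3.35 on the log2 scale. H2-Q7, H2-Q6 and their neighbours are near-identical copies, so these values are uncertain. In KO_PBS against KO, 3 of the 11 were lower, against 4.7% of all genes. They were H2-Q1, H2-Q2 and H2-Q10, at log2 -1.48, -2.42 and -3.36. The intervals of H2-Q2 and H2-Q10 in KO_PBS overlapped those of WT. Of 5 class I-like molecules, 4 were higher in KO, among them Cd1d1 (1.92), which presents lipids, and Fcgrt (1.22), the neonatal Fc receptor. Centred on the median gene, 2 of the 5 were counted, without Fcgrt and Procr. Mr1, which presents vitamin B metabolites, was at 0.15. In KO_PBS against KO, Fcgrt was counted as higher at log2 1.29, as 39.9% of all genes were, but not when centred on the median gene (0.66).

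Peptide loading and trimming genes had a median log2 ratio of 0.94 in KO against WT. Of the 6, Erap1 (1.85), which trims peptides in the endoplasmic reticulum, and Tapbp (1.61), the tapasin gene that bridges the transporter and the heavy chain, were higher, and the chaperones Canx (0.96) and Calr (0.91) stayed under 2-fold. Of 3 proteasome activators only Psme3 (1.09), a nuclear activator, passed 2-fold, and centred on the median gene it was not counted (0.85). Psme1 (0.76) and Psme2 (0.61), the interferon-responsive pair, did not. None of the 12 other genes of the 20S core and its assembly was counted, and their median log2 ratio of -0.11 lay below that of all genes. In KO_PBS against KO the medians were 0.32 for loading and trimming, 0.67 for the activators and -0.47 for the 20S core. Tapbp was counted as higher there at log2 1.13, as 39.9% of all genes were, but not when centred on the median gene (0.50).

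**Figure D3:**
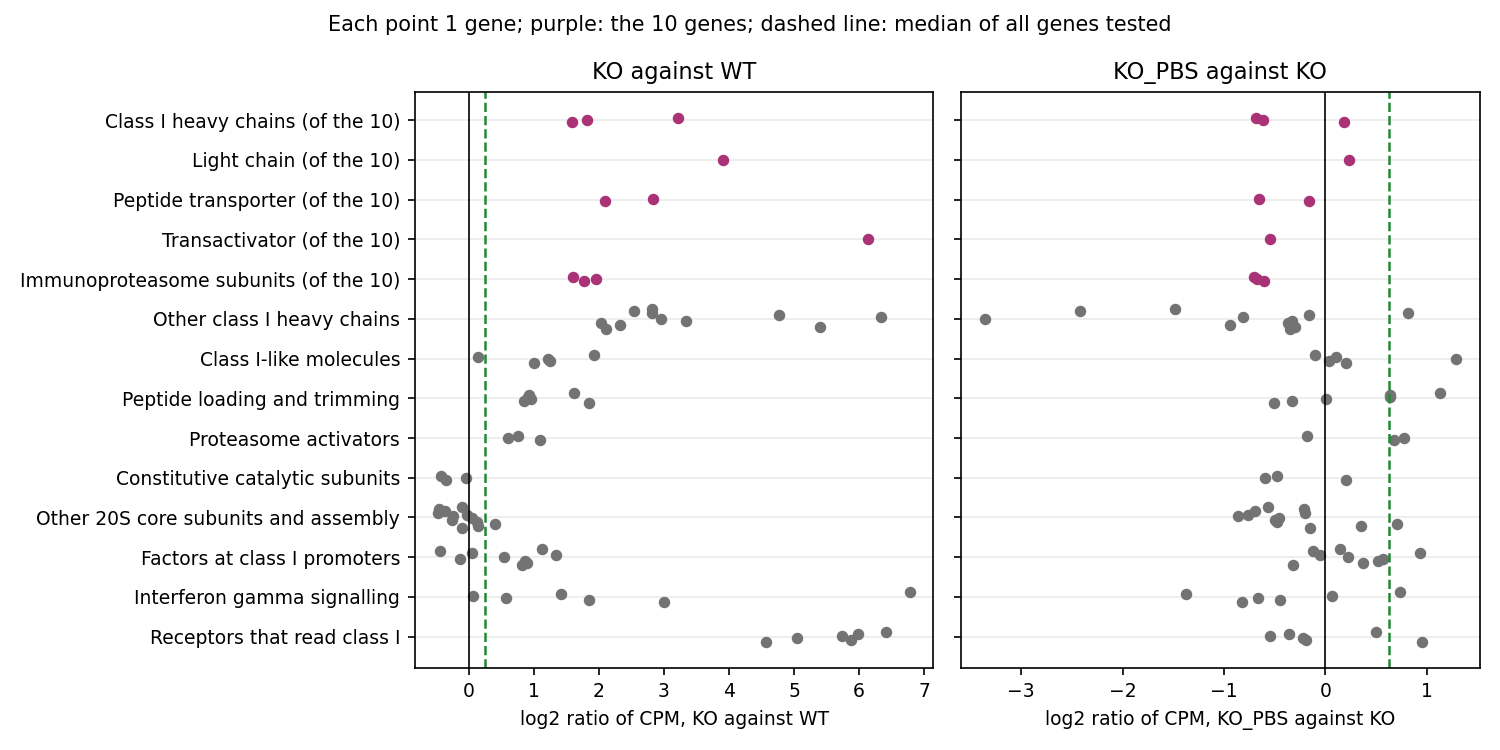
Log2 ratio of CPM for each gene, by list, in KO against WT (left) and KO_PBS against KO (right). The 10 genes are purple, and the dashed lines mark the median of all genes compared, 0.24 and 0.63. In KO against WT the 10 genes and the other heavy chains lie right of the line and the 20S core lies around 0. In KO_PBS against KO all 10 lie left of the line.

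Among 9 factors that act at class I promoters, 2 passed 2-fold in KO. They were Creb1 and Rfx5, which bind the X box, with log2 ratios of 1.35 and 1.13. That share is near the 20.6% of all genes, and centred on the median gene Rfx5 (0.88) was not counted. Irf1 (0.89), an interferon-induced activator, and Nfyc (0.86), a subunit of the NF-Y complex at the Y box, stayed under 2-fold, and the median of the list was 0.82. Of 6 genes of interferon gamma signalling, 4 were higher. Ifng itself had 1 UMI in WT, 453 in KO and 382 in KO_PBS, which is 1.29 CPM in KO (1.17 to 1.41) and 2.15 in KO_PBS (1.94 to 2.37). Socs1, the feedback inhibitor, had a log2 ratio of 3.01, Jak2 1.85 and the receptor chain Ifngr1 1.41, while Ifngr2 had 0.057. In KO_PBS against KO, 1 of the 6 was counted: Ifngr1 was lower at log2 -1.38, against 4.7% of all genes.

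All 6 listed receptors for class I or class I-like molecules were higher in KO than in WT. Cd8a, a chain of the CD8 co-receptor, had 9 (WT), 1055 (KO) and 757 UMIs (KO_PBS), which is 0.035, 3.00 and 4.26 CPM. Its partner chain Cd8b1 had 17, 1481 and 586 UMIs in the same order, which is 0.066, 4.22 and 3.30 CPM. Between KO and KO_PBS the order of the pair was thus not shared, with intervals apart for both. Klrd1 had a log2 ratio of 5.74 and Klrk1, which reads class I-like ligands, one of 5.87 in KO against WT. Pirb, an inhibitory receptor of myeloid cells for class I, was at 0.696 CPM in WT, 16.5 in KO and 31.8 in KO_PBS.

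Markers of several cell types moved with the 10 genes. All 10 macrophage markers were counted as higher in KO, and their sum was 68.4 (WT), 843 (KO) and 848 CPM (KO_PBS). The 10 T cell markers were all higher too, with sums of 8.23, 139.8 and 141.5, and the 7 plasma cell markers summed to 46.1, 1322 and 177. Barcodes rich in markers of macrophages, dendritic cells, neutrophils, T cells, B cells or plasma cells were rare: 48 in the WT library, 1243 in KO, 144 in KO_PBS. Without them the sum of the 10 genes was 1226 CPM in WT, 6469 in KO and 5159 in KO_PBS, and no log2 ratio of KO to WT moved by more than 0.0034. Macrophage markers still summed to 66.7, 838 and 843 CPM in the barcodes left, so leaving these barcodes out removed little of the immune RNA. Outside the immune lists, all 8 keratocyte markers were counted as higher in KO than in WT (summed CPM 1171 and 3994), with 2310 in KO_PBS. Vascular markers were higher in KO for 7 of 10, while 6 of 7 melanocyte and 7 of 8 photoreceptor markers were lower. The part of these cell types in the ratios, and of immune cells beyond the barcodes left out, was not tested.

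UMIs of the 10 genes were spread over barcodes almost as if each barcode had drawn them from the total of its library. Expected shares were computed from each barcode's depth and the library level. In KO, 98.6% of barcodes had a B2m UMI, against 98.7% expected, and in WT 25.5% against 25.8%. Nlrc5 had a UMI in 0.251% of barcodes in WT against 0.255% expected, in 19.1% in KO against 19.6%, and in 6.55% in KO_PBS against 6.93%. With only 247 UMIs of Nlrc5 in WT, the observed and expected shares lie close under most spreads, so they say little there. That holds in part for other genes with few UMIs per barcode in WT, such as Tap1. The variance of the counts was 1.00 to 1.25 times the Poisson value over the 10 genes and 3 libraries. With every barcode thinned to 1000 UMIs, which left out 265 (WT), 226 (KO) and 16860 (KO_PBS) shallower ones, B2m had a UMI in 11.3% of WT barcodes, 82.8% of KO barcodes and 87.5% of KO_PBS barcodes. For H2-D1 the shares were 39.9%, 83.1% and 69.1%. Photoreceptor-marker-rich barcodes were set beside these, since photoreceptors are neurons in which class I display is low. After thinning, 10.4% of them in WT, 81.2% in KO and 79.9% in KO_PBS held a B2m UMI, at median depths of 2553, 3395 and 2242 UMIs, against 11.04%, 82.8% and 87.7% of barcodes in no marker class, at 2224, 2933 and 1508. In WT (6.88% to 14.8%) and KO (74.4% to 86.9%) the intervals of these barcodes held the share of the others, so a barcode with a B2m UMI is not read as a cell that expresses it. In KO_PBS the photoreceptor-marker-rich share (76.5% to 83.0%) was lower than that of the other barcodes (87.5% to 87.9%).

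The barcodes with few UMIs held the 10 genes at nearly the level of those with many. With barcodes cut by their UMIs into 4 depth groups of 25% each, the sum of the 10 from the shallowest to the deepest group was 1205, 1211, 1218 and 1247 CPM for WT and 6428, 6445, 6458 and 6520 for KO. In KO_PBS it was 5423, 5360, 5262 and 4895. Within KO_PBS, Nlrc5 went the other way, from 33.1 CPM in the shallowest group to 59.6 in the deepest, while Psmb8 went from 509 to 395 and Psmb10 from 186 to 131. By the share in the top barcodes, Nlrc5 was also the most gathered of the 10 there: the 1% of barcodes with the most Nlrc5 UMIs held 23.3% of them, against 18.1% expected. By the variance it was not: H2-D1 and B2m were at 1.25 and H2-K1 at 1.18 times the Poisson value, and Nlrc5 at 1.12 times.

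**Figure D4:**
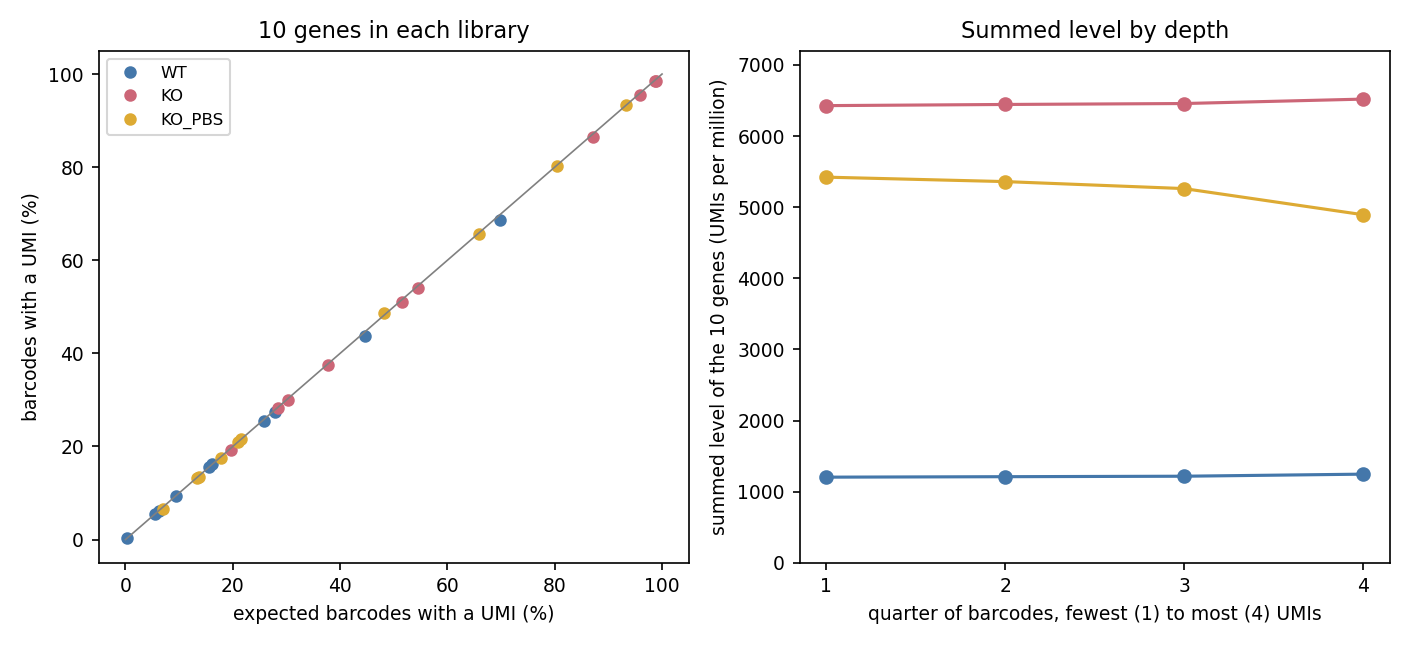
Left, percentage of barcodes with a UMI of each of the 10 genes against the percentage expected from depth alone, in the WT, KO and KO_PBS libraries, with the line of equality. Right, summed level of the 10 genes in CPM in 4 depth groups of 25% of the barcodes each, from fewest to most UMIs. Points lie on the line at left, and levels at right are nearly flat in WT and KO and go from 5423 to 4895 in KO_PBS.

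Few barcodes stood out by the markers of a cell type, and in WT and KO most classes of them carried the summed 10 genes near the level of their library. A barcode was called rich in a marker list when at least 3 of its markers had a UMI and their sum had a Poisson tail below 1e-06 against the library profile. Such a class is not a pure cell type: the keratocyte-marker-rich barcodes of WT held keratocyte markers at 7744 CPM, against 1171 in the library, but also differentiated-epithelium markers at 36254 CPM, against 39369. With the UMIs of the 10 genes spread almost as a draw from the library, a class level near that of the library is therefore not read as the level of that cell type. No class of at least 50 barcodes reached 1.5 times its library in WT or KO. WT classes of that size ran from 0.907 times the library in photoreceptor-marker-rich barcodes to 1.24 times in basal-epithelium-marker-rich ones. Among the smaller WT classes, 46 macrophage-marker-rich barcodes were at 1.64 times and 31 vascular-marker-rich barcodes at 1.93 times. KO classes ran from 0.954 in differentiated-epithelium-marker-rich to 1.27 in macrophage-marker-rich barcodes. Side by side, keratocyte-marker-rich barcodes held a sum of 1262 CPM in WT (1238 to 1287) and 6937 in KO (6877 to 6997), and lens-marker-rich ones 1213 (1163 to 1264) and 6555 (6350 to 6765). These sums lay close to those of their libraries, but single genes did not always. In WT, B2m was at 1.85 times its library in melanocyte-marker-rich and 1.62 times in corneal-endothelium-marker-rich barcodes, where H2-T23 was at 0.630 and Tap1 at 0.658 times. In KO, H2-D1 was at 1.52 times in corneal-endothelium-marker-rich barcodes and Nlrc5 at 0.541 times in differentiated-epithelium-marker-rich ones.

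The subunit ratio also differed between classes. UMIs of Psmb8, Psmb9 and Psmb10 per UMI of Psmb5, Psmb6 and Psmb7 were 0.491 in WT, 1.88 in KO and 1.54 in KO_PBS over all barcodes. By class they ran from 0.322 (corneal endothelium) to 0.565 (basal epithelium) in WT, from 1.46 (melanocyte) to 2.40 (macrophage) in KO, and from 1.08 (skeletal muscle) to 2.44 (macrophage) in KO_PBS. The intervals of corneal endothelium (0.291 to 0.355) and basal epithelium (0.536 to 0.596) in WT lay apart. In KO the interval of the macrophage class (2.03 to 2.84) lay above the library value. Those of basal epithelium (upper limit 1.86), differentiated corneal epithelium (1.83), corneal endothelium (1.81) and melanocyte (1.77) lay below it. Some WT and KO_PBS classes lay apart from their library value too. Every KO class of at least 50 barcodes lay above every WT class of that size. With UMIs spread almost as a draw from the library, this order largely follows from the library ratios of 0.491 and 1.88. It is not read as a change in each cell type.

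The only class of at least 50 barcodes that passed the 1.5-fold mark was in KO_PBS. The smaller WT classes of macrophage (1.64 times) and vascular markers (1.93 times) passed it too. The 58 macrophage-marker-rich barcodes of KO_PBS had a summed level of 8788 CPM (8354 to 9238), 1.70 times their library. Nlrc5 was at 188 CPM in them, 4.04 times its library level, from 33 UMIs, Tap2 at 2.43 times, H2-T23 at 2.26 times and H2-K1 at 1.95 times, whereas B2m was at 1.48 times and Psmb8 at 1.35 times. In all, 7 of the 10 genes were above their library by the same interval rule at 1.5-fold, as were 5.42% of the 21095 genes compared there. These shares are not like for like. The class held 175360 UMIs in all, so genes with few UMIs in the library could hardly be counted. The 10 genes had 31 (Tap1) to 544 UMIs (B2m) in it. Of the 58 barcodes, 42 lay near the limit of the class, with a tail between 1e-10 and 1e-06, and with the limit at 1e-10 the class fell under 50 barcodes. In KO the 81 macrophage-marker-rich barcodes had the 10 genes at 0.933 (Tap1) to 1.42 (H2-D1) times their library. The 72 vascular-marker-rich barcodes of KO_PBS held Nlrc5 at 148 CPM, 3.17 times their library, from 32 UMIs, with the other nine between 0.790 and 1.47 times. Nlrc5 was also above its library in the 222 basal-epithelium-marker-rich barcodes of KO_PBS, at 2.12 times from 85 UMIs, with Tap1 at 1.78 and Tap2 at 1.67 times. These KO_PBS classes were deep: medians were 3455 (basal), 2595 (macrophage) and 2572 UMIs (vascular) against 1432 in the library. Nlrc5 was higher in deeper barcodes there (33.1 to 59.6 CPM). Melanocyte-marker-rich barcodes, at a median of 3580, held Nlrc5 at 1.17 times. The part of depth was not tested. Photoreceptor- and melanocyte-marker-rich barcodes of KO_PBS were at 0.704 and 0.672 times the library sum. This was not particular to the 10 genes. Psmb5, Psmb6 and Psmb7 were at 0.627, 0.789 and 0.649 times their library in the photoreceptor class. In the melanocyte class they were at 0.560, 0.541 and 0.509 times.

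**Figure D5:**
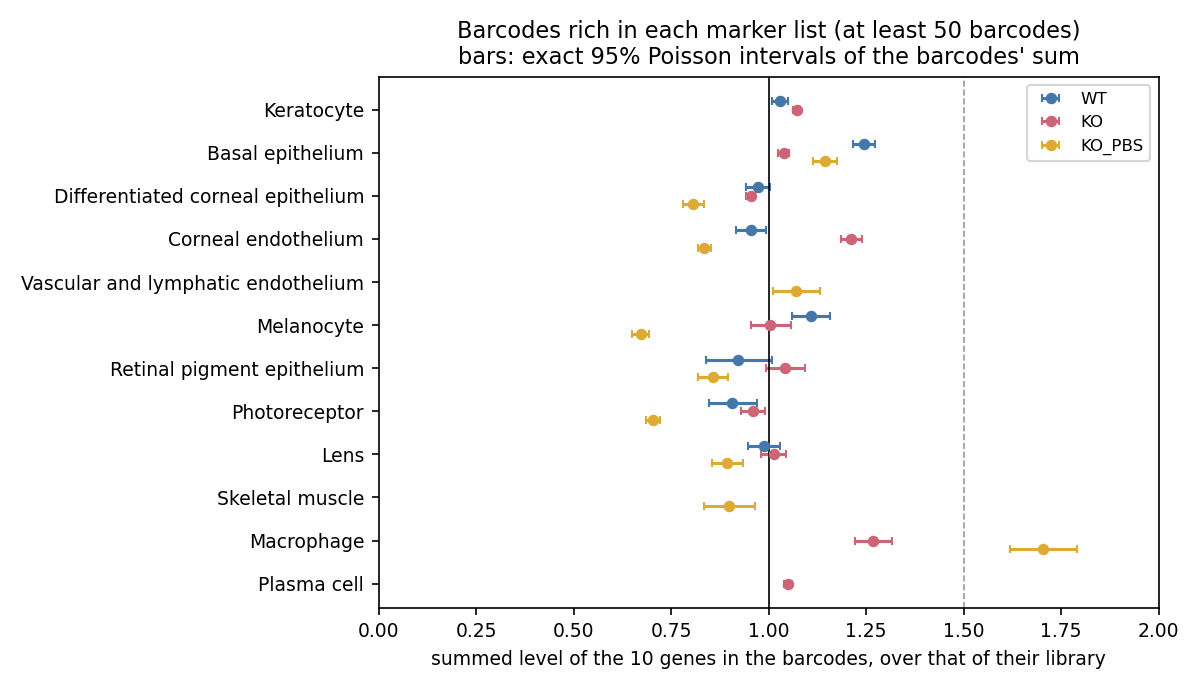
Summed level of the 10 genes in barcodes rich in each marker list, divided by that of their library, with exact 95% Poisson intervals, for classes of at least 50 barcodes. The dashed line marks 1.5 times. The macrophage-marker-rich barcodes of KO_PBS, at 1.70 times, lie to its right.

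The genes whose pattern was most like that of the 10 were sought among 4252 others with at least 50 CPM in 1 of the 3 libraries. Likeness was the distance between a gene's log2 ratios of KO and KO_PBS to WT and the median ratios of the 10, 2.03 and 1.85. The nearest was Adar (distance 0.044), an interferon-inducible RNA editing enzyme, with 16.5 CPM in WT, 68.6 in KO and 61.0 in KO_PBS. Il6st (0.11), the shared receptor chain of the interleukin-6 family, Cblb (0.11), a ubiquitin ligase, Sirpa (0.13), a myeloid receptor for CD47, and Csmd1 (0.14) followed. The measure rests on 3 libraries.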

How the data were processed

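Nuclei of whole mouse corneas were sequenced in 3 libraries with the 10x 3' kit, per the labels' protocols. The authors deposited raw UMI counts per gene and barcode. Cell Ranger 7.0.1 and the build mm10 are named in the submitters' processing notes, and the annotation and barcode filter are not given in the sources used here. UMIs were summed over all barcodes of a library and scaled to CPM over the 30406 genes listed in all 3 files, which held at least 99.3% of UMIs. No doublets were removed. With 1 library per group no test was possible, and differences are given by a rule of size. The script was tested on simulated data. The 10 genes, the pathway lists, the markers and the rule that names genes (the 10, up to 4 per list with the largest ratio of KO to WT, and 5 genes most like the 10) were chosen with earlier results of these data known. Values are also given for list genes outside this rule, among them H2-Q1, H2-Q2, H2-Q10, Mr1, Calr, Ifngr2 and Pirb. Not every gene that the rule names is given. One pathway gene is not reported here and was left out of its list. Alternatives covered barcodes, denominator, centring, UMI minimum, fold, marker tail and thinning. Promoters came from RefSeq and gene models from GENCODE M21. Intervals cover counting error only. Software was matplotlib 3.10.9, pandas 2.3.3, scipy 1.17.1, numpy 2.4.6 and python 3.11.15.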

Additional observations from a re-analysis of the deposited data

How the results depend on the processing

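No paired analysis was possible because each group has 1 library. Centring on the median gene moved the number of the 10 counted as lower in KO_PBS against KO from 0 to 7, and the number counted as higher in KO_PBS against WT from 9 to 3, with Psmb8 at -0.38, Psmb10 at -0.10 and H2-D1 at -0.069 below 0 on the log2 scale. A fold of at least 1.5 counted 6 as lower in KO_PBS against KO, as 8.59% of all genes were. A fold of at least 4 counted 5 as higher in KO against WT (8.0% of all genes) and 4 in KO_PBS against WT (35.2%). Of the marker classes above their library, a tail below 1e-04 gave 1 in WT, and a tail below 1e-10 or a class fold of at least 2 gave 0 in KO_PBS. Under the other alternatives run (called barcodes, other denominators, no UMI minimum, barcodes weighted alike, no immune-marker-rich barcodes, and the 25% of barcodes with the fewest or the most UMIs) all 10 were higher in KO against WT, 0 differed in KO_PBS against KO, and 8 to 10 were higher in KO_PBS against WT. One of the denominators, without Gm42418, was chosen after seeing the data. Depth limits Nlrc5 most, with 247 UMIs in WT.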
